A study of Mus musculus with 17 samples.

Results

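The comparison was between LYVE1+CX3CR1+ and MHCII+CD11c+ macrophages sorted from the synovium, the tissue that lines joints, of control mice. Its members were the 6 control libraries that the labels name for these populations, 3 of each, of 17 bulk RNA-seq libraries in all, and the 15272 of 22859 genes that passed a filter on low counts. All mice in the series were labelled Fcgr2b-KO, so the controls shared this label, the gene being that of the inhibitory Fc receptor for immunoglobulin G. Control mice are those not given immune complexes (IC), that is, antibody bound to antigen. The further groups were MHCII+CD11c− controls (3 libraries) and the same 3 populations 8 h after intravenous IC (3, 3 and, for MHCII+CD11c+, 2 libraries). The study's methods give gates of MHCII and CD11c for MHCII+CD11c+ cells, and of LYVE1 and CX3CR1 without MHCII or Ly6C for LYVE1+CX3CR1+ cells. They name adult mice of both sexes for all experiments, not for these libraries in particular. Neither the strain nor the number of mice in a library is given for these libraries in the sources used here. The legend of a plot of RNA-seq of the same 3 populations, which does not name the genotype, counts several mice for each point, so a library may be a pool.

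LYVE1 is a receptor for hyaluronan that marks resident macrophages of many tissues, and CX3CR1 is the receptor of the chemokine CX3CL1. In joints, CX3CR1+ macrophages form a barrier-like lining of the synovium, and LYVE1+ macrophages elsewhere lie along vessels and nerves and take up dying cells and debris. MHC class II molecules present peptides to CD4+ T cells. CD11c, encoded by Itgax, is an integrin chain shared by dendritic cells and some macrophages, so a gate on MHC class II and CD11c can hold both.

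LYVE1+CX3CR1+ control libraries held 3669763 to 7248939 counts and MHCII+CD11c+ control libraries 2549315 to 5598198. Drawn down to 2301913 counts each, LYVE1+CX3CR1+ libraries had 16346 to 17393 genes with a count, and MHCII+CD11c+ libraries 16255, 16713 and 13811. The first of these populations was the more uniform, with correlations of log2 CPM (counts per 1e6 counts) between libraries of 0.952 to 0.977 against 0.876 to 0.920. MHCII+CD11c+ library 2 lay nearest to the other population. Of the genes that were higher in LYVE1+CX3CR1+ macrophages in the test described next, it had the highest of the 3 MHCII+CD11c+ values in 60.4%, while it had the highest value in 37.9% of all genes tested. Of the genes that were lower, it had the lowest MHCII+CD11c+ value in 58.0%. LYVE1+CX3CR1+ library 2 had the lowest value of its own group in 53.9% of the higher genes. Mitochondrial genes took 11.3% of counts in that library, 13.4% in MHCII+CD11c+ library 2 and 11.9% in MHCII+CD11c− library 2, against 6.80 to 9.84% in control libraries 1 and 3, and the part of this in the results was not tested. Library number 2 of each control population also carried high Arg1, the gene of arginase 1, at 552 CPM for the LYVE1+CX3CR1+ library against 1.57 and 8.09 in libraries 1 and 3. For MHCII+CD11c+ cells it was 1500 against 2.13 and 0 CPM, and for MHCII+CD11c− cells 1979 against 2.13 and 12.4 CPM.

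Of 15272 genes, 2326 (15.2%) differed between the populations, with 1196 (7.83%) higher and 1130 (7.40%) lower in LYVE1+CX3CR1+ cells. Of these, 882 (5.78%) and 872 (5.71%) differed by over 1 log2 unit. The counts given for gene lists below can be set against the shares of 7.83% higher and 7.40% lower. All adjusted p-values are from edgeR's quasi-likelihood F test with Benjamini-Hochberg adjustment over all genes, a gene was called at an adjusted p under 0.05, and positive log2 fold changes (± SE) are higher in LYVE1+CX3CR1+ cells. Levels are CPM scaled by TMM, over n = 3 libraries a group. The libraries of the groups did not overlap in 5757 genes (37.7%) and in 2290 of the called genes (15.0% of those tested, 7.78% higher and 7.22% lower). The median over all genes was 0.05, and between −0.01 and 0.07 under other scalings of the library sizes. Genes called higher had a median summed exon length of 5392.5 bases, those called lower 3858 and those not called 3738, and an offset that removed the trend on length left 1166 and 1119 calls. Without MHCII+CD11c+ library 2 there were 1373 higher and 1108 lower calls, among them 1034 and 1001 of the above. In bulk samples, fewer cells of a type and less RNA per cell cannot be told apart.

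**Figure D1:**
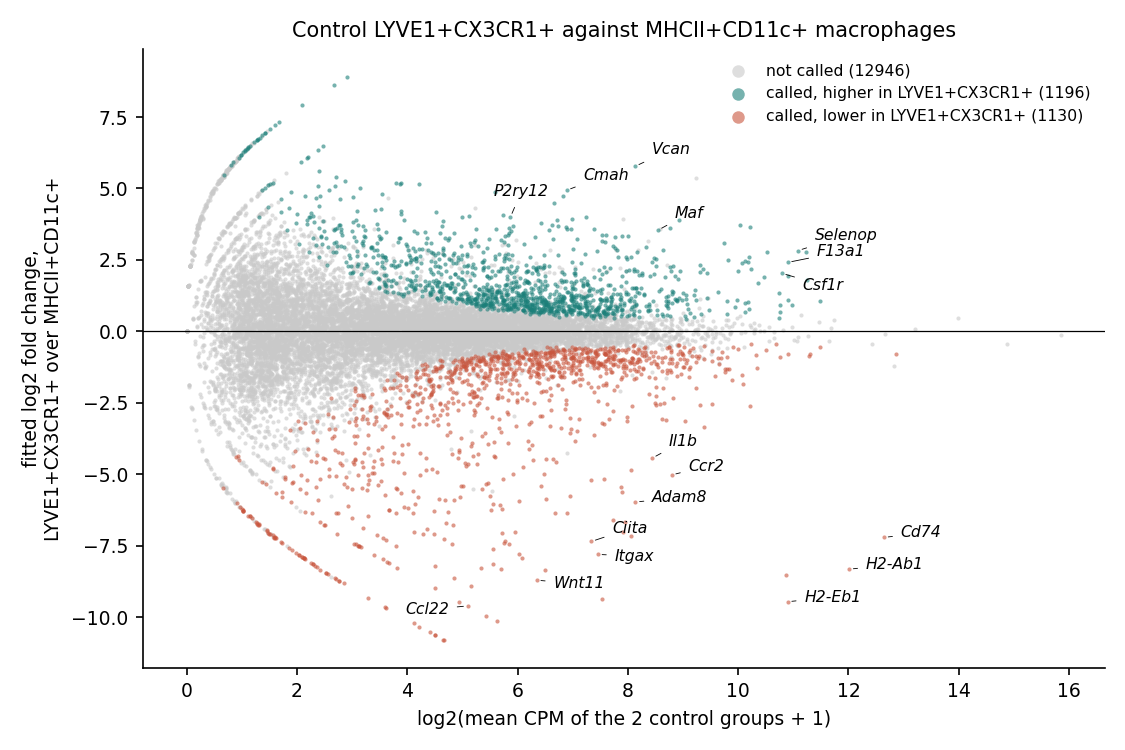
Fitted log2 fold change (y axis, LYVE1+CX3CR1+ over MHCII+CD11c+ controls) against the level of each of 15272 genes (x axis, log2 of the mean CPM of both groups plus 1). Teal points are the 1196 genes called higher and orange points the 1130 called lower. H2-Ab1 at −8.32 and Cd74 at −7.21 lie far below 0 at a high level. Arcs of points at low levels are genes with few counts, whose fitted values depend on the prior count.

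The gene labelled as knocked out and the markers of the sort were examined first. The direction of the sort markers was set by the gates, so their tests only check the labels. Only the list of MHC class II presentation, given below, was also counted without genes of the gate. In any other list that holds a sort marker, that marker is counted. Fcgr2b (chromosome 1, 170958617 to 170976547, minus strand) had 111, 84.9 and 116 CPM in the LYVE1+CX3CR1+ libraries and 248, 163 and 241 in the MHCII+CD11c+ libraries. Counts were thus assigned to the gene labelled as knocked out in every library, and the table does not say which exons they cover. The lower level in LYVE1+CX3CR1+ cells passed the test (−1.06 ± 0.26, adjusted p = 0.00615). Lyve1 (chromosome 7, 110850607 to 110863239, minus strand) had 1727, 1801 and 2338 CPM in LYVE1+CX3CR1+ and 29.8, 382 and 25.3 in MHCII+CD11c+ libraries. The groups did not overlap, and MHCII+CD11c+ library 2 carried most of the Lyve1 of its group. The difference was 3.74 ± 0.90 log2 units (adjusted p = 0.0147), 6.14 without that library (adjusted p = 1.68e-08), and it was not called in a fit of the 6 libraries alone (adjusted p = 0.122). Cx3cr1 was also higher, at 435, 333 and 528 against 37.01, 73.9 and 14.8 CPM (3.34 ± 0.77, adjusted p = 0.0112, 0.066 with surrogate variables in the model). Itgax (chromosome 7, 128129547 to 128150657, plus strand) was at 2.21, 0.54 and 1.53 against 335, 434 and 275 CPM, 244 times lower (−7.80 ± 0.57, adjusted p = 1.5e-07). Lyve1 and Itgax therefore follow the labels in all 6 libraries. Ly6c2, a near copy of Ly6c1 and one gene of the antigen that the LYVE1+ gate leaves out, had no count in the LYVE1+CX3CR1+ libraries and 1.91, 0 and 1.51 CPM in the others, which did not pass the test (adjusted p = 0.103). Of 12 general macrophage genes, all of which were tested, 6 were higher in LYVE1+CX3CR1+ cells, 2 were lower and 4 were not called. Their median was 0.48 and the lowest value −1.55. Lyz2, the lysozyme gene, had 7123, 5817 and 6006 and 6113, 6276 and 7724 CPM and Spi1, the gene of the transcription factor PU.1, 245, 216 and 267 and 251, 194 and 297, and neither was called (adjusted p = 0.828 and 0.954). Adgre1, the gene of F4/80, was 2.16 times higher in LYVE1+CX3CR1+ cells (adjusted p = 0.000868), Cd68 2.12 times (adjusted p = 1.8e-05) and Csf1r, the receptor of the macrophage growth factor CSF1, 4.09 times (adjusted p = 8.4e-08).

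Most MHC class II genes were far lower in LYVE1+CX3CR1+ cells. Of 15 genes of MHC class II presentation, all of which were tested, 10 were lower, none was higher and 5 were not called, with a median of −5.16 against 0.05 over all genes. H2-Aa, H2-Ab1 and H2-Eb1 encode the chains of the molecules by which one of the populations was sorted, so their direction was set by the gate, and only their size is described. H2-Ab1 (chromosome 17, 34257689 to 34269419, plus strand) was at 19.4, 36.8 and 21.9 CPM in LYVE1+CX3CR1+ and 9804, 6076 and 8856 in MHCII+CD11c+ libraries (−8.32 ± 0.37). H2-Eb1 (chromosome 17, 34305867 to 34316674, plus strand) was at 3.78, 4.59 and 7.54 against 4472, 2747 and 4217 CPM, 719 times lower. In both genes the lowest MHCII+CD11c+ library was far above the highest of the other group. Of the 12 other genes of the list, whose products were not stained in the sort, 7 were lower, none was higher and 5 were not called, with a median of −3.22. A gate on class II protein can also set the direction of genes that are switched on together with it, so this count is a description. Ciita (chromosome 16, 10480059 to 10528418, plus strand), the coactivator that switches on MHC class II transcription, had 1.42, 1.35 and 2.79 against 361, 227 and 372 CPM (−7.35 ± 0.48, adjusted p = 1.54e-08). Cd74, the invariant chain that guides class II molecules to endosomes, had 73.5, 97.03 and 87.6 against 15720, 8885 and 13610 CPM (−7.21 ± 0.34, adjusted p = 4.91e-10). H2-DMa and H2-DMb1, which load peptides onto class II, were 36.1 and 43.2 times lower (adjusted p = 7.47e-05 and 8.16e-08). H2-DMb2 was 62.1 times lower (adjusted p = 6.99e-07), and reads may be shared between it and H2-DMb1, its near copy. Ctss, the protease that trims the invariant chain, had 2114, 1930 and 2289 and 1592, 2908 and 1236 CPM and was not called (adjusted p = 0.872). The DNA-binding partners of CIITA were not called either, with Rfx5 at 13.8 ± 0.499 and 28.2 ± 15.7 CPM (adjusted p = 0.225). Of the 10 calls, that of H2-Ob was lost without LYVE1+CX3CR1+ library 1 (0.103), 2 (0.137) or 3 (0.099) or MHCII+CD11c+ library 1 (0.131) or 3 (0.114). Values in brackets after a library, here and in later paragraphs, are adjusted p without that library.

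The promoters of 4 class II genes are shown because they hold the Y box core described here, 3 of them with the X box core before it. As background, RFX proteins bind the X box and NF-Y binds the Y box of class II promoters, and CIITA binds to both once assembled. In RefSeq promoters of GRCm38.p6, the 250 bases before each gene's start were searched on both strands for a Y box core (TGATTGG) and an X box core (AACNGATG). These letters were chosen after the sequences had been seen. The Y core was found in 7.23% of all 32851 promoters and in 7 of 12 promoters of the class II list, which belong to 11 of its 15 genes. The X core was found in 1.98% and in 4 of 12, and both together in 48 promoters (0.146%), of which 3 belong to the list. No entry was matched for Ciita, H2-Ab1, Cd74 and Rfxap. Below are the 140 bases before the start, 5′ to 3′ along the gene, with the cores in capitals.
H2-Eb1, chr17:34305727-34305866, plus strand: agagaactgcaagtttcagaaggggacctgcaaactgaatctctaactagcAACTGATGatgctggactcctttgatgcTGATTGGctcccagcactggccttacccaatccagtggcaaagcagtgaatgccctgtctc
H2-DMb1, chr17:34153051-34153190, plus strand: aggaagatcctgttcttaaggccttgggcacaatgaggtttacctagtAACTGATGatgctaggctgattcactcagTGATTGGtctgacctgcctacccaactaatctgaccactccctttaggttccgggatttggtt
H2-DMb2, chr17:34145109-34145248, plus strand: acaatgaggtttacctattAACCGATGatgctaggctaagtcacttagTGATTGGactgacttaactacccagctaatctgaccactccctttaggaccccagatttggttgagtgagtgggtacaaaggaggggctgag
H2-Aa, chr17:34287824-34287963, minus strand: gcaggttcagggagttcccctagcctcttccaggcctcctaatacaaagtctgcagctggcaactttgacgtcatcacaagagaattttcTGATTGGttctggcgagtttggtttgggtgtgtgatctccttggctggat
The X core precedes the Y core by 20 bases in H2-Eb1 and by 21 in H2-DMb1 and H2-DMb2. In H2-Aa only the Y core matched these letters, as in H2-Ob. The cores did not separate called from uncalled members, since neither was found in the promoters of H2-DMa and Ifi30, which were lower, while the Y core was found in those of Rfx5 and H2-Oa and the X core in that of Ctss, which were not called. The match is a description of the sequence and was not tested for binding.

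**Figure D2:**
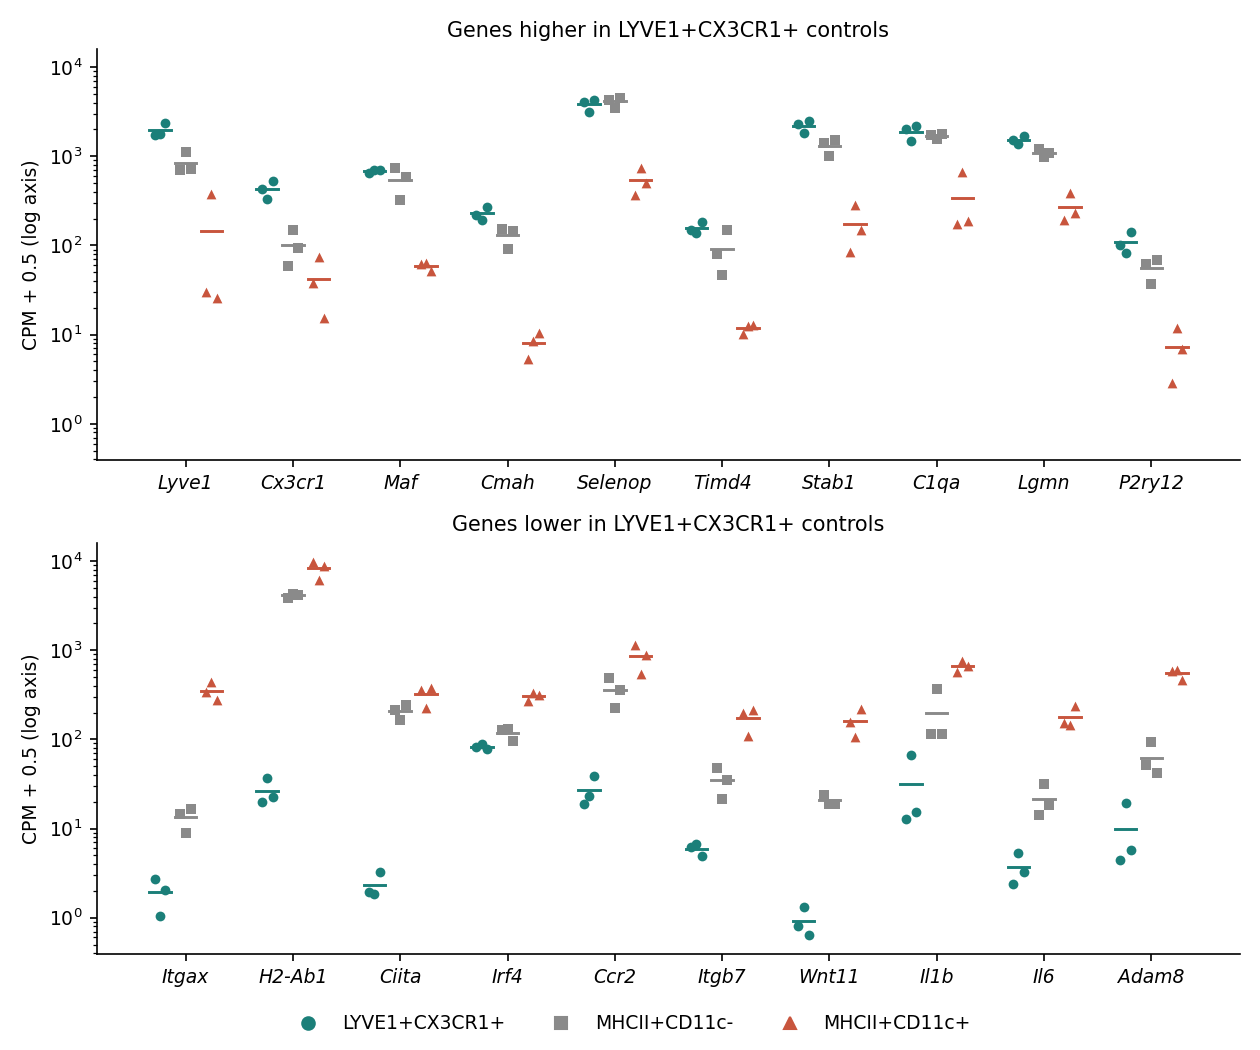
CPM plus 0.5 on a log axis in each control library (points) and group mean (bars, n = 3) for 10 genes higher and 10 lower in LYVE1+CX3CR1+ (circles) than in MHCII+CD11c+ cells (triangles), with MHCII+CD11c− controls as squares. Circles and triangles do not overlap for any of the 20 genes, and the squares of H2-Ab1 and Ciita lie close to the triangles while those of Itgax and Wnt11 lie between.

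Most listed genes of dendritic cells were lower in LYVE1+CX3CR1+ cells. Of 10 transcription factors that direct dendritic cell development, 7 were lower, none was higher and 3 were not called (median −1.28). Irf4, which drives type 2 conventional dendritic cells, had 81.1, 89.2 and 77.2 CPM in LYVE1+CX3CR1+ and 269, 329 and 312 in MHCII+CD11c+ libraries (−1.88 ± 0.23, adjusted p = 3.2e-06). Zbtb46, found in conventional dendritic cells and not in most macrophages, had 11.7, 13.8 and 11.3 against 44.5, 39.01 and 42.7 CPM (−1.78 ± 0.38, adjusted p = 0.0015). Runx3 (chromosome 4, 135120652 to 135177990, plus strand) had 1, 0 and 3 counts in the LYVE1+CX3CR1+ libraries and 84.9, 67.1 and 84.7 CPM in the others, a ratio of 333 (95% counting interval 130.0 to 1220, adjusted p = 3.2e-09). Irf8, the factor of type 1 dendritic cells and of monocytes, overlapped between groups, at 64.4, 81.6 and 80.7 and 15.7, 76.3 and 51.05 CPM (adjusted p = 0.24). Of 15 tested genes of dendritic cell surface and migration, 11 were lower, none was higher and 4 were not called. Their median was −6.36, or −5.21 with members at the floor set to their bound. Flt3, the growth factor receptor of dendritic cell precursors, had 2, 2 and 0 counts against 54.02, 16.2 and 40.1 CPM, and Cd209a, a DC-SIGN homologue, 8.03, 4.59 and 12 against 452, 135 and 351 CPM (adjusted p = 8.93e-07 and 3.57e-05). Cd24a had 1.1, 5.95 and 1.12 against 218, 184 and 198 CPM (−6.37 ± 0.51, adjusted p = 4.08e-08). Ccr7, the receptor that leads dendritic cells to lymph nodes, had no count in LYVE1+CX3CR1+ libraries and 21.1, 26.6 and 50.7 CPM in the others, at least 170.0-fold higher in MHCII+CD11c+ cells (floor of 3 counts over the group; adjusted p = 0.000109). Xcr1, which marks type 1 dendritic cells, was near the floor in both groups and not called (adjusted p = 0.206), and Clec9a did not pass the filter. Some of these calls were lost when 1 library was left out. That of Relb was lost without LYVE1+CX3CR1+ library 1 (0.0621) or 3 (0.0533) or MHCII+CD11c+ library 3 (0.104), that of Rbpj without LYVE1+CX3CR1+ library 1 (0.0558) or 2 (0.0528) or MHCII+CD11c+ library 1 (0.0883), that of Kmo without LYVE1+CX3CR1+ library 1 (0.0928) or 3 (0.0759) or MHCII+CD11c+ library 1 (0.063) or 3 (0.0857) and that of Btla without LYVE1+CX3CR1+ library 1 (0.124), 2 (0.101) or 3 (0.131) or MHCII+CD11c+ library 1 (0.0603) or 3 (0.136), and that of Batf3 with surrogate variables (0.0868). Irf8 was called higher without MHCII+CD11c+ library 2 (adjusted p = 0.0128).

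In 35 genes, each LYVE1+CX3CR1+ library had at most 3 counts while each MHCII+CD11c+ library had at least 10 CPM, and no gene had the opposite pattern. A gene with over 3 counts in only 1 MHCII+CD11c+ library drops out of the opposite pattern, and library 2 lay nearest to LYVE1+CX3CR1+ cells. The part of that library in this asymmetry was not tested. The highest was Wnt11 (chromosome 7, 98835112 to 98855195, plus strand), a secreted WNT ligand, with 2, 3 and 1 counts in LYVE1+CX3CR1+ libraries and 158, 105 and 219 CPM in MHCII+CD11c+ libraries, a ratio of 426 (95% counting interval 195 to 1160; adjusted p = 4.21e-10). Dcstamp, which is needed for the fusion of macrophages and osteoclasts, had 0, 0 and 1 counts against 93.8, 86.8 and 109 CPM, and Dpp4, the gene of CD26, 1, 0 and 1 against 74.2, 36.4 and 97.6 (adjusted p = 3.67e-06 and 1.36e-06). Both were close to absent in one population and present in every library of the other. Ngfr, the low-affinity receptor of nerve growth factor, had no count in LYVE1+CX3CR1+ libraries and 64.02, 39.2 and 27.2 CPM in the others, at least 263-fold higher (adjusted p = 1.81e-06). Klrb1b, which encodes a lectin-like receptor best known from natural killer cells, had no count against 84.9, 31.2 and 28.7 CPM, at least 290.0-fold (adjusted p = 0.00018). Upb1, Strip2, Ccl17 and Ccl22 also belong to the highest 12, with group means of 84.6, 43.6, 59.6 and 66.2 CPM in MHCII+CD11c+ cells. Runx3, described above, is another. Mucl1 had 41.5, 48.9 and 55.6 CPM and lost its call with surrogate variables (adjusted p = 0.0626). Ngp, a granule protein of neutrophils, had 181, 11.9 and 81.7 CPM in MHCII+CD11c+ libraries, highest in library 1 (adjusted p = 0.0107), and its call was lost without LYVE1+CX3CR1+ library 1 (0.0544) or 3 (0.0529).

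Monocyte genes differed in the same direction, with 8 of 14 lower, 1 higher and 5 not called (median −3.06). Ccr2, the receptor by which monocytes leave the marrow, had 18.3, 22.7 and 38.1 CPM in LYVE1+CX3CR1+ and 1152, 547 and 887 in MHCII+CD11c+ libraries (−5.02 ± 0.54, adjusted p = 3.22e-05). Cd177 and Chil3, other members that were lower, are also made by neutrophils, as is Ngp above. The member that was higher was Vcan, the proteoglycan versican, at 527, 441 and 682 against 3.83, 22.5 and 1.89 CPM (5.77 ± 1.09, adjusted p = 0.00357). Plac8 had 1.42, 0.54 and 0.837 and 9.15, 1.86 and 10.2 CPM and Fn1, fibronectin, 3440, 5166 and 4646 and 9534, 12710 and 8274, and neither was called (adjusted p = 0.143 and 0.456). The call of Chil3 was lost without LYVE1+CX3CR1+ library 1 (0.0502), 2 (0.0657) or 3 (0.0834) or MHCII+CD11c+ library 1 (0.0509) and that of Treml4 without LYVE1+CX3CR1+ library 1 (0.179), 2 (0.141) or 3 (0.0848) or MHCII+CD11c+ library 1 (0.175) or 3 (0.0503).

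Some neutrophil markers were lower in LYVE1+CX3CR1+ cells too, 3 of 10 against 7.40% of all genes tested, with none higher and 7 not called. Their summed level was 37.8 to 92.2 CPM in LYVE1+CX3CR1+ and 98.5 to 433 CPM in MHCII+CD11c+ libraries, and 199 to 511 CPM in MHCII+CD11c− libraries. S100a8 had 0.315, 0 and 1.67 against 62.3, 15.98 and 55.97 CPM and was called (adjusted p = 0.0056, 0.101 with surrogate variables). Its partner S100a9, with 0, 0 and 4.88 against 142, 37.1 and 88.9, was not called (adjusted p = 0.0713). The calls of the neutrophil genes Ltf and Retnlg, both lower, were lost without LYVE1+CX3CR1+ library 1 (0.105 and 0.123), 2 (0.0882 and 0.109) or 3 (0.118 and 0.0606). With surrogate variables they were at 0.144 and 0.141. That of Retnlg was also lost without MHCII+CD11c+ library 1 (0.0674) or 3 (0.0587) and with DESeq2 (0.0542). Ly6g, the defining marker, had no count in LYVE1+CX3CR1+ libraries and 3.62, 0.186 and 7.56 CPM in the others (adjusted p = 0.0625, 0.0419 without MHCII+CD11c+ library 2). After IC, MHCII+CD11c+ libraries had 0.735 and 0.366 CPM of S100a8 and 0 and 0 of Ngp. The part of neutrophil RNA in the differences above was not tested.

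Integrins and adhesion molecules were more often lower than higher in LYVE1+CX3CR1+ cells, with 11 of 26 tested members lower, 3 higher and 12 not called. Itgb7 (chromosome 15, 102215995 to 102231944, minus strand), the β7 chain that pairs with α4 to hold leukocytes to mucosal vessels, had 5.67, 6.22 and 4.46 against 195, 108 and 214 CPM (−4.99 ± 0.35, adjusted p = 7.64e-10). Itgal, the LFA-1 α chain, was 15.4 times lower and Cd44, a hyaluronan receptor like LYVE1, 2.89 times lower (adjusted p = 0.000106 and 0.000901). Itga9 went the other way, with 179, 199.5 and 200.2 against 1.7, 20.99 and 0.756 CPM (4.50 ± 0.82, adjusted p = 0.0026). Itgb2, Itgb1 and Itgav were among the members not called. The call of Itgam, the CD11b chain, was lost without LYVE1+CX3CR1+ library 1 (0.0709) or 3 (0.171) or MHCII+CD11c+ library 2 (0.0521) or 3 (0.122), that of Itga6 without LYVE1+CX3CR1+ library 1 (0.0704), 2 (0.0751) or 3 (0.112) or MHCII+CD11c+ library 1 (0.0531) or 3 (0.108) and that of Itgb3 without LYVE1+CX3CR1+ library 1 (0.104) or 2 (0.0902) or MHCII+CD11c+ library 2 (0.122). Genes of the actin cytoskeleton and motility had 12 of 27 members lower, 1 higher and 14 not called (median −0.51). Tmsb10, a thymosin that binds actin monomers, had 28.2, 37.6 and 22.9 against 246, 203 and 284 CPM (−3.06 ± 0.25, adjusted p = 9.68e-09). Myo1g, a short-tailed myosin of blood cells, was 4.83 times lower, Lsp1, which binds filamentous actin in leukocytes, 5.76 times and Coro1a, coronin 1A, 3.82 times (adjusted p = 8.51e-09, 2.33e-08 and 5.86e-06). Actb itself, often used as a reference gene, was 1.71 times lower, at 5120, 4989 and 6286 against 10660, 7908 and 9499 CPM (adjusted p = 0.0013). Rhoa was the member called higher, and its call was lost without LYVE1+CX3CR1+ library 1 (0.0899), 2 (0.123) or 3 (0.119) or MHCII+CD11c+ library 1 (0.11) or 3 (0.216).

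Matrix proteases and their inhibitors had 7 of 18 tested members lower, 2 higher and 9 not called. Adam8, a surface metalloprotease of leukocytes, had 3.94, 18.6 and 5.3 CPM in LYVE1+CX3CR1+ and 583, 606 and 469 in MHCII+CD11c+ libraries (−5.97 ± 0.69, adjusted p = 7.45e-05). Mmp12, macrophage elastase, had 0, 1.62 and 0.14 against 30.6, 159.9 and 85.1 CPM and Mmp19 12.6, 25.1 and 19.9 against 185, 259.9 and 152 (adjusted p = 6.29e-05 and 0.000707). Timp2, a metalloprotease inhibitor, was in contrast 6.78 times higher in LYVE1+CX3CR1+ cells, at 2673, 2062 and 2957 against 224, 709 and 203 CPM (adjusted p = 0.00251). Mmp8, a neutrophil collagenase, was another member with no count in LYVE1+CX3CR1+ cells. The call of Timp1 was lost without LYVE1+CX3CR1+ library 1 (0.157) or 3 (0.152) or MHCII+CD11c+ library 1 (0.0596) or 2 (0.178) and that of Spint1 without LYVE1+CX3CR1+ library 1 (0.069), 2 (0.0509) or 3 (0.0735).

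**Figure D3:**
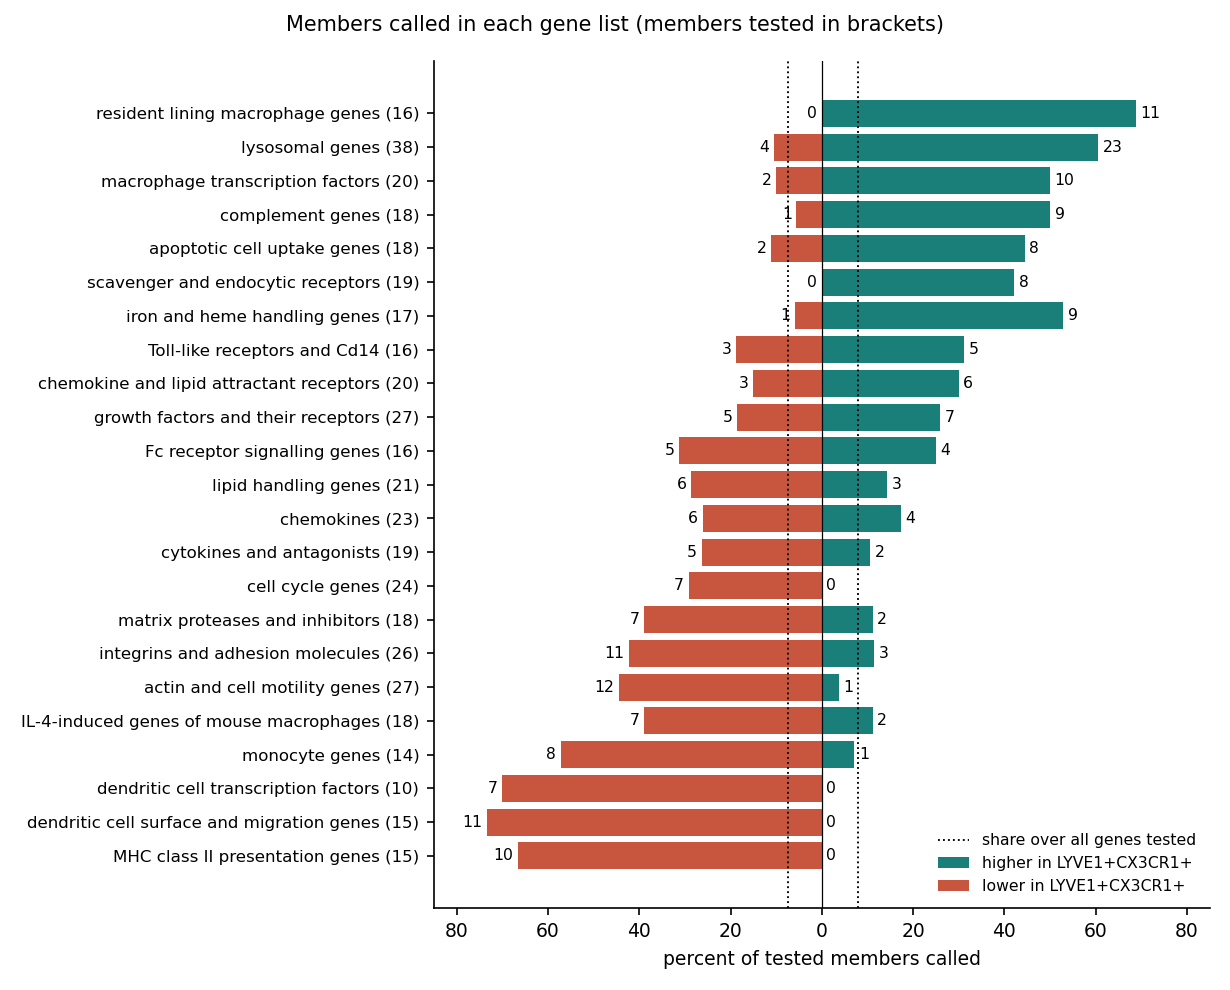
Percent of tested members (x axis) called higher (teal, right) or lower (orange, left) in LYVE1+CX3CR1+ controls in 23 gene lists, with the number of members called at each bar end and the number tested in brackets. Dotted lines are the shares over all genes tested (7.83% and 7.40%); the lower calls reach 11 of 15 in dendritic cell surface and migration genes and the higher calls 11 of 16 in resident lining macrophage genes.

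Il6 and Il1b were lower in LYVE1+CX3CR1+ cells, while most cytokine genes were not called. Of 19 tested cytokines and antagonists, 5 were lower in LYVE1+CX3CR1+ cells, 2 higher and 12 not called. Il6 had 1.89, 4.87 and 2.79 CPM in LYVE1+CX3CR1+ and 154, 144 and 239 in MHCII+CD11c+ libraries (−5.86 ± 0.69, adjusted p = 2.96e-05). Il1b, the gene of interleukin 1β, had 12.4, 66.8 and 14.7 against 564, 763 and 659.9 CPM (−4.44 ± 0.80, adjusted p = 0.00237). Its antagonists moved in the same direction, with Il1rn 8.09 times lower and the decoy receptor Il1r2 26.6 times lower (adjusted p = 0.000318 and 7.53e-06). Tnf and Il10 were not called, at 305, 292 and 349 against 199, 288 and 222 CPM and 29.4, 30.8 and 27.9 against 32.3, 11.5 and 22.3 (adjusted p = 0.281 and 0.614). The groups did not overlap for Tnf and did for Il10. Il12b had no count in LYVE1+CX3CR1+ libraries and 0, 9.47 and 4.16 CPM in the others, and its call was lost without LYVE1+CX3CR1+ library 1 (0.055) or 3 (0.0589).

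Of 23 chemokines, 4 were higher in LYVE1+CX3CR1+ cells, 6 were lower and 13 were not called. Cxcl10, which attracts T cells through CXCR3, had 2.68, 0 and 3.77 against 55.7, 51.8 and 80.5 CPM (−4.72 ± 0.72, adjusted p = 0.00018), and Ccl6 was 3.29 times lower (adjusted p = 0.000684). Ccl22 and Ccl17, ligands of CCR4, had 0, 0 and 1 and 0, 0 and 1 counts in the LYVE1+CX3CR1+ libraries and 107, 36.6 and 55.6 and 31.3, 117 and 30.2 CPM in the others (adjusted p = 0.000862 and 0.000442). Higher in LYVE1+CX3CR1+ cells were Pf4, platelet factor 4, at 414, 428 and 433 against 49.98, 175 and 59.8 CPM (2.15 ± 0.42, adjusted p = 0.00257), and Ccl3, 2.9 times (adjusted p = 0.000758). The call of Ccl24 was lost without LYVE1+CX3CR1+ library 3 (0.065) or MHCII+CD11c+ library 1 (0.0547), that of Ccl9 without LYVE1+CX3CR1+ library 3 (0.0552) and that of Ccl7 with surrogate variables (0.0553). Cxcl2, an attractant of neutrophils, overlapped between the groups, at 527, 851 and 514 and 697, 1230 and 930.0 CPM (adjusted p = 0.31). Among 20 receptors for chemokines and lipid attractants, 6 were higher, 3 lower and 11 not called. P2ry12, an ADP receptor best known from microglia, had 102, 81.3 and 142 against 2.34, 11.3 and 6.43 CPM (3.99 ± 0.48, adjusted p = 1.05e-05), and Cmklr1, the chemerin receptor, was 4.46 times higher (adjusted p = 4.34e-06). Ltb4r1, the receptor of leukotriene B4, was the reverse, at 0.472, 0 and 0.698 against 63.6, 29.7 and 55.2 CPM (−6.71 ± 0.68, adjusted p = 3.35e-07).

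Genes that interleukin 4 induces in mouse macrophages were more often lower than higher in LYVE1+CX3CR1+ cells. Of 18, 7 were lower, 2 higher and 9 not called (median −2.56). Retnla had 197, 517 and 293 CPM in LYVE1+CX3CR1+ and 1332, 3263 and 1567 in MHCII+CD11c+ libraries (−2.62 ± 0.55, adjusted p = 0.00615), and Ear2, a ribonuclease of eosinophils and some macrophages with close copies among which reads may be split, 0, 1.35 and 0.558 against 504, 191 and 410.0 (−9.35 ± 1.35, adjusted p = 0.00113). Mgl2 was 5.7 times lower (adjusted p = 4.55e-05). Clec10a, its neighbour in the C-type lectin family, overlapped, at 121, 74.9 and 139 and 131, 64.8 and 169.8 CPM (adjusted p = 0.945), and was at 502 ± 227 CPM in MHCII+CD11c− cells. Mrc1, the mannose receptor, was 1.89 times higher in LYVE1+CX3CR1+ cells (adjusted p = 0.00334, 0.0535 without LYVE1+CX3CR1+ library 3). Arg1, the best known of the list, was set by library number 2 of each group, as given above, and was not called (adjusted p = 0.808).

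Toward LYVE1+CX3CR1+ cells, the genes with the smallest p across the table were Cmah, Maf, Fcgrt, Selenop, Tcn2, Wwp1, Tns1, Ninj1, Lgmn, Serinc3, Dab2 and Glul. Cmah (chromosome 13, 24327404 to 24477377, plus strand), the hydroxylase that makes N-glycolylneuraminic acid, had 218, 194 and 272 CPM in LYVE1+CX3CR1+ and 4.89, 7.99 and 9.83 in MHCII+CD11c+ libraries (4.94 ± 0.29, adjusted p = 1.13e-10). Selenop (chromosome 15, 3268547 to 3280508, plus strand), the plasma carrier of selenium, had 4081, 3128 and 4234 against 371, 740.1 and 500.3 CPM (2.83 ± 0.21, adjusted p = 1.45e-09). Tcn2, transcobalamin 2, which carries vitamin B12, was 8.72 times higher, and Glul, glutamine synthetase, 4.31 times (adjusted p = 3.44e-09 and 3.36e-08). All 12 were called in each alternative setting that kept the threshold of the test. The 12 of the opposite direction were H2-Eb1, H2-Ab1, Wnt11, Cd74, Gm2a, Itgb7, Mefv, Fgl2, Pim1, Runx3, Rin3 and Nup210, also called in each of those settings. H2-Eb1 and H2-Ab1 are genes of the gate. Among the others, Mefv, the gene of pyrin, had 0.315, 0.27 and 1.12 against 125, 75.4 and 118 CPM, and Gm2a, the lysosomal activator protein of ganglioside GM2, 80.3, 67.8 and 104 against 788, 536 and 771 (adjusted p = 1.45e-09 and 7.56e-10). Fgl2, a fibrinogen-like protein, was 9.92 times lower and the kinase gene Pim1 5.78 times (adjusted p = 1.45e-09 and 2.71e-09).

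Of 20 transcription factors of macrophages, 10 were higher, 2 lower and 8 not called (median 1.14). Maf (chromosome 8, 115682942 to 115707794, minus strand), which helps to hold macrophages in a mature, non-dividing state, had 654, 705 and 704 against 61.9, 63.5 and 51.4 CPM (3.54 ± 0.23, adjusted p = 2.82e-10). Bhlhe41, a regulator of resident macrophages, was low in both but differed, at 31.03, 24.1 and 25.3 against 0, 1.86 and 0 CPM (5.15 ± 1.02, adjusted p = 0.0016). Klf2 was 2.54 times higher and Mef2c 3.15 times (adjusted p = 1.31e-06 and 0.000113). Pparg, which alveolar macrophages need, was lower, with 5.67, 4.59 and 2.79 against 42.1, 16.2 and 45.8 CPM (−2.99 ± 0.67, adjusted p = 0.00286). The call of Cebpa was lost without LYVE1+CX3CR1+ library 1 (0.157) or 3 (0.139) or MHCII+CD11c+ library 2 (0.0655) or 3 (0.0968), that of Tfec without LYVE1+CX3CR1+ library 1 (0.0629) or MHCII+CD11c+ library 1 (0.0734) and that of Egr2 without LYVE1+CX3CR1+ library 1 (0.205) or 3 (0.135) or MHCII+CD11c+ library 1 (0.0993), 2 (0.141) or 3 (0.0578).

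Genes known from the resident lining macrophages of the synovium were higher in 11 of 16 cases, with none lower and 5 not called (median 2.78). Timd4, a receptor for phosphatidylserine on dying cells, had 149.9, 138 and 185 CPM in LYVE1+CX3CR1+ and 9.78, 11.9 and 12.5 in MHCII+CD11c+ libraries (3.79 ± 0.35, adjusted p = 1.79e-07). Gas6, the ligand that bridges phosphatidylserine to MERTK, had 811, 658 and 929.9 against 48.1, 97.9 and 49.9 CPM (3.61 ± 0.33, adjusted p = 6.74e-07). Cbr2, a carbonyl reductase, and Folr2, folate receptor β, were 14.8 and 8.62 times higher (adjusted p = 4.91e-05 and 0.002). F13a1, the coagulation factor XIII A chain, had 3096, 2825 and 3716 against 712, 429 and 671 CPM (2.41 ± 0.23, adjusted p = 2.91e-07). Vsig4 (chromosome X, 96247203 to 96293438, minus strand), a complement receptor and a usual marker of these cells, was not called although its groups lay far apart, at 1119, 1209 and 1188 against 1.06, 81.2 and 0 CPM (adjusted p = 0.0636). Trem2 had 199.5, 153 and 144 against 17.02, 118 and 11.7 CPM and Aqp1 436, 530.0 and 564 against 17.9, 185 and 6.05 (adjusted p = 0.211 and 0.157). In each of these 3 genes MHCII+CD11c+ library 2 was the highest of its group. Without it they were called, with log2 fold changes of 3.50 for Trem2 and 5.34 for Aqp1, and for Vsig4 with 1 of the remaining libraries at 0 (adjusted p = 0.006, 0.0178 and 0.00927). The call of Sparc was lost without LYVE1+CX3CR1+ library 3 (0.0535) or MHCII+CD11c+ library 1 (0.0792) or 3 (0.0672).

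Several genes for taking up dying cells and debris were higher in LYVE1+CX3CR1+ cells. Of 18 tested genes of apoptotic cell uptake, 8 were higher, 2 lower and 8 not called (median 1.39). Mertk, the receptor kinase that takes up cells coated with GAS6 or protein S, had 209.6, 237 and 227 against 15.5, 55.5 and 19.7 CPM (2.87 ± 0.35, adjusted p = 1.65e-05). Stab1, a scavenger receptor that also recognises phosphatidylserine, had 2279, 1835 and 2465 against 83.8, 287 and 149 CPM (3.66 ± 0.45, adjusted p = 0.000101). Axl, the relative of MERTK that binds the same ligand GAS6, was lower, at 105, 98.4 and 108 against 152, 192 and 137 CPM (adjusted p = 0.0298), and its call was lost without LYVE1+CX3CR1+ library 1 (0.0628), 2 (0.099) or 3 (0.0531) or MHCII+CD11c+ library 2 (0.131). That of Itgb3 is given above. Of 19 tested scavenger and endocytic receptors, 8 were higher, none lower and 11 not called. Colec12 was 7.87 times higher, Dab2, a clathrin adaptor, 5.2 times and Cd163, the receptor of haptoglobin-haemoglobin, 2.1 times (adjusted p = 0.000886, 2.95e-08 and 0.0012). The call of Fcna, ficolin A, was lost without LYVE1+CX3CR1+ library 1 (0.0585) or 3 (0.0591) or MHCII+CD11c+ library 2 (0.073) or 3 (0.0733).

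Lysosomal genes were mostly higher, with 23 of 38 called so, 4 lower and 11 not called (median 1.01). Lgmn, legumain, had 1514, 1390 and 1709 CPM in LYVE1+CX3CR1+ and 194, 389.7 and 233 in MHCII+CD11c+ libraries (2.50 ± 0.21, adjusted p = 1.03e-08). Cathepsin genes were on both sides. Ctsb was 3.48 times higher and Ctsd 4.23 times (adjusted p = 2.91e-07 and 3.82e-05). Ctsh had 181, 115 and 194 against 299.9, 285 and 368 CPM and was lower (−0.96 ± 0.21, adjusted p = 0.00232). The membrane protein Lamp1 was 2.59 times higher and Gaa, acid α-glucosidase, 4.46 times (adjusted p = 7.81e-07 and 0.000286). Psap, prosaposin, a partner of GM2A in the breakdown of sphingolipids, was lower like Gm2a, at 1821, 1429 and 2298 against 3654, 2616 and 3315 CPM (−0.79 ± 0.19, adjusted p = 0.00475). The call of Gla was lost without LYVE1+CX3CR1+ library 1 (0.14), 2 (0.0889) or 3 (0.138) or MHCII+CD11c+ library 2 (0.073) or 3 (0.197), that of Idua without LYVE1+CX3CR1+ library 1 (0.0923) or 3 (0.128) or MHCII+CD11c+ library 1 (0.0642) or 3 (0.118), that of Tfe3 without LYVE1+CX3CR1+ library 1 (0.0672) or 3 (0.0706) or MHCII+CD11c+ library 1 (0.0618) or 3 (0.0558) and that of Ctsz without LYVE1+CX3CR1+ library 1 (0.0956) or 2 (0.183) or MHCII+CD11c+ library 1 (0.0565), 2 (0.109) or 3 (0.104).

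Complement genes were higher in 9 of 18 tested cases, lower in 1 and not called in 8. C1qa, C1qb and C1qc encode the chains of C1q, which starts the classical pathway from bound antibody. C1qa had 2001, 1472 and 2188 against 173, 667 and 186 CPM (2.46 ± 0.48, adjusted p = 0.00386), C1qb was 4.29 times higher and C1qc 6.05 times (adjusted p = 0.000816 and 0.0054). In all 3 genes MHCII+CD11c+ library 2 was above libraries 1 and 3, at 667, 698 and 705 CPM. C5ar1, the receptor of the fragment C5a, had 274, 279.5 and 354 against 32.5, 70.03 and 26.1 CPM (2.80 ± 0.29, adjusted p = 8.93e-07). C3, the central component, was the member that was lower, at 5.51, 12.7 and 8.09 against 58.7, 461 and 49.2 CPM (−4.47 ± 1.04, adjusted p = 0.0119), and its call was lost without LYVE1+CX3CR1+ library 1 (0.0593) or 3 (0.057). The call of C3ar1, the receptor of C3a, was lost without LYVE1+CX3CR1+ library 3 (0.0547) or MHCII+CD11c+ library 1 (0.0588).

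Of 17 genes of iron and haem handling, 9 were higher, 1 lower and 7 not called. Hmox1, haem oxygenase 1, had 567, 605 and 486 against 232, 178 and 211 CPM (1.42 ± 0.18, adjusted p = 3.44e-06), and Blvrb, a biliverdin reductase, was 3.09 times higher (adjusted p = 0.000273). Slc40a1, the iron exporter ferroportin, overlapped, at 34.02, 18.9 and 29.7 and 2.77, 0.743 and 20.8 CPM (adjusted p = 0.359, 0.0452 without MHCII+CD11c+ library 3). The member that was lower was Lcn2, also a neutrophil granule gene, at 54.2, 3.9 and 19.7 CPM in MHCII+CD11c+ libraries. Its call was lost without LYVE1+CX3CR1+ library 1 (0.0831), 2 (0.0672) or 3 (0.09), that of Slc11a1 without LYVE1+CX3CR1+ library 1 (0.0958) or 3 (0.164) or MHCII+CD11c+ library 3 (0.137), that of Tfrc without LYVE1+CX3CR1+ library 2 (0.0603) or MHCII+CD11c+ library 3 (0.0657), that of Ftl1 without LYVE1+CX3CR1+ library 1 (0.183) or 3 (0.12) or MHCII+CD11c+ library 1 (0.0567) or 3 (0.0602) and that of Fth1 without LYVE1+CX3CR1+ library 1 (0.107), 2 (0.0725) or 3 (0.0972) or MHCII+CD11c+ library 1 (0.17) or 3 (0.0913).

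Growth factor genes and their receptors were divided, with 7 of 27 higher, 5 lower and 15 not called. Tgfbr2, the ligand-binding receptor of TGF-β, had 622, 480.0 and 755 CPM in LYVE1+CX3CR1+ and 110.4, 133 and 79.04 in MHCII+CD11c+ libraries (2.52 ± 0.25, adjusted p = 1.48e-07), and Bmp2 was 8.52 times higher (adjusted p = 0.000907). Csf2rb, the signalling chain of the GM-CSF receptor, had 66.9, 38.4 and 62.4 against 448, 400.1 and 501 CPM and was lower (−3.0 ± 0.39, adjusted p = 5.11e-05), as was the partner chain Csf2ra, 2.58 times (adjusted p = 2.09e-05). The receptor of CSF1 was thus higher in one population and both chains of that of GM-CSF in the other. Areg, amphiregulin, and Vegfa were lower, at 2.52, 7.3 and 4.88 against 75.3, 216 and 97.6 CPM and 1.57, 4.59 and 2.09 against 23.2, 122 and 23.4. Both were highest in MHCII+CD11c+ library 2 and both were called (adjusted p = 0.0152 and 0.0194), but the call of Areg was lost without LYVE1+CX3CR1+ library 1 (0.0701) or 3 (0.0646) and that of Vegfa without LYVE1+CX3CR1+ library 1 (0.0848) or 3 (0.086). Igf1 was not called, at 214, 184 and 222 and 32.97, 314 and 21.6 CPM, with MHCII+CD11c+ library 2 above the other population (adjusted p = 0.603, 2.29e-08 without that library). The call of Tgfbr1 was lost without LYVE1+CX3CR1+ library 3 (0.0608) or MHCII+CD11c+ library 1 (0.0796) or 3 (0.0696).

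The populations also differed in lipid mediators. Of 18 prostaglandin and leukotriene genes, 5 were higher, 4 lower and 9 not called. Hpgds, which makes prostaglandin D2, had 232, 182 and 240.3 against 17.02, 15.6 and 22.3 CPM (3.59 ± 0.32, adjusted p = 3.46e-08). Ltc4s, leukotriene C4 synthase, had 50.5, 40.3 and 41.3 against 2.13, 5.94 and 1.51 CPM (3.70 ± 0.46, adjusted p = 3.76e-06), and Alox5, which makes the precursor of leukotrienes, was 4.35 times higher (adjusted p = 0.000177). Hpgd, which inactivates prostaglandins, was 8.88 times higher (adjusted p = 0.000135). In MHCII+CD11c+ cells the higher genes were Ptgs2, the inducible cyclooxygenase, at 7.25, 22.2 and 13.5 against 95.9, 186 and 114 CPM (−3.23 ± 0.47, adjusted p = 0.000122), and the receptors Ptgir of prostacyclin and Ptger2 of prostaglandin E2, at 2.61 against 51.5 and 0.734 against 15.9 CPM (adjusted p = 8.22e-05 and 0.00164). Of 21 genes of lipid handling, 3 were higher, 6 lower and 12 not called. Apoe, apolipoprotein E, had 5160, 3054 and 4353 against 810.4, 362 and 674 CPM (2.77 ± 0.47, adjusted p = 0.00154), and Abca1, a cholesterol exporter, was 4.13 times higher (adjusted p = 3.29e-07). Abcg1, the exporter to mature HDL particles, was instead 2.76 times lower (adjusted p = 1.68e-05). Lpl, lipoprotein lipase, had 73.4, 112 and 133 against 1043, 698 and 1069 CPM, and Fabp5, a fatty acid carrier, 5.2, 4.05 and 3.63 against 65.1, 96.6 and 105 (adjusted p = 1.64e-05 and 0.00551).

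Receptors that sense antibody, microbes and nerves were on both sides. Of 10 tested Fc receptor genes, 2 were higher, 2 lower and 6 not called. Fcgrt (chromosome 7, 45092990 to 45103851, minus strand), the neonatal Fc receptor that saves immunoglobulin G from breakdown, had 730.1, 621 and 758 against 116, 91.4 and 82.8 CPM (2.86 ± 0.20, adjusted p = 7.56e-10). Fcgr1, the high-affinity receptor, had 58.7, 60.3 and 63.6 against 17.02, 19.9 and 0.756 CPM (adjusted p = 0.0184), and its call was lost without LYVE1+CX3CR1+ library 3 (0.0579), and also with surrogate variables (0.0984), at equal depth (0.0513) and in fits of the 6 libraries (0.0594) or the 9 controls (0.0535) alone. Fcgr4 was not called (adjusted p = 0.203, 0.0443 without MHCII+CD11c+ library 2). Among 16 tested signalling genes of Fc receptors, 4 were higher, 5 lower and 7 not called, the kinase Fgr being 7.57 times lower and the adaptor Dok3, which dampens signals, 5.55 times higher (adjusted p = 6.38e-06 and 1.46e-06). Of 16 Toll-like receptor genes and partners, 5 were higher, 3 lower and 8 not called. Tlr7 and Tlr13, sensors of RNA in endosomes, were 6.53 and 6.08 times higher and Tlr9, a sensor of DNA, 2.54 times lower (adjusted p = 0.000319, 0.000396 and 0.00665; Tlr9 0.146 with surrogate variables). The call of Tlr4 (higher) was lost without LYVE1+CX3CR1+ library 1 (0.0622), 2 (0.0521) or 3 (0.166) or MHCII+CD11c+ library 1 (0.162) or 3 (0.166), that of Cd14 (lower) without LYVE1+CX3CR1+ library 1 (0.0658) or 2 (0.103) or MHCII+CD11c+ library 3 (0.103) and that of Myd88 (lower) without LYVE1+CX3CR1+ library 1 (0.0705) or 2 (0.13) or MHCII+CD11c+ library 1 (0.135) or 3 (0.136), and with surrogate variables they were at 0.288, 0.0687 and 0.468. Of 9 tested receptors of neuropeptides and related nerve signals, 4 were higher, 2 lower and 3 not called. RAMP1 joined to the calcitonin receptor-like receptor (Calcrl) forms the receptor of the nociceptor peptide CGRP, while RAMP2 or RAMP3 turns it into a receptor of adrenomedullin. Ramp1 had 3.78, 4.05 and 3.07 CPM in LYVE1+CX3CR1+ and 85.1, 50.3 and 80.2 in MHCII+CD11c+ libraries (−4.30 ± 0.59, adjusted p = 1.42e-05). Calcrl went the other way, with 70.2, 62.4 and 75.8 against 24.03, 32.7 and 23.8 CPM (1.37 ± 0.32, adjusted p = 0.00393). Ramp2 had 5.67, 7.57 and 2.65 CPM and 2, 0 and 0 counts, a ratio of 30.7 (95% counting interval 8.23 to 258; adjusted p = 0.0227), and its call was lost without LYVE1+CX3CR1+ library 1 (0.0592) or 2 (0.0678) or MHCII+CD11c+ library 2 (0.0774) or 3 (0.0726). Ramp3 was instead lower in LYVE1+CX3CR1+ cells, and its call was kept in each alternative setting but the stricter thresholds. Its adjusted p was 0.000197 to 0.00668 when 1 of the 6 libraries was left out.

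Genes of growth and of handling stress were compared last. Of 24 tested cell cycle genes, 7 were lower in LYVE1+CX3CR1+ cells, none was higher and 17 were not called (median −1.50). Mki67 had 95.4, 195 and 104 against 362, 536 and 357 CPM and Tk1, thymidine kinase, 20.5, 26.5 and 13.9 against 64.9, 73.8 and 107 (adjusted p = 0.002 and 7.74e-05). Top2a was not called, at 25.04, 75.4 and 34.2 and 154, 226 and 111 CPM (adjusted p = 0.0756, 0.043 without LYVE1+CX3CR1+ library 2). The call of Mcm2 was lost without LYVE1+CX3CR1+ library 1 (0.0979), 2 (0.0932) or 3 (0.0789) or MHCII+CD11c+ library 1 (0.0555), 2 (0.0808) or 3 (0.0578), that of Mcm3 without LYVE1+CX3CR1+ library 1 (0.0877), 2 (0.141) or 3 (0.11) or MHCII+CD11c+ library 2 (0.0687) or 3 (0.285) and that of Rrm2 without LYVE1+CX3CR1+ library 1 (0.133), 2 (0.0611) or 3 (0.145) or MHCII+CD11c+ library 2 (0.0844) or 3 (0.0717). Ribosomal protein genes, a list made after the values had been seen, were lower in 74 of 84 tested cases and never higher (median −1.12), and they took 1.39 to 1.65% of counts in LYVE1+CX3CR1+ and 3.03 to 3.65% in MHCII+CD11c+ libraries. Rpsa, for example, had 474 ± 64.98 against 1692 ± 305 CPM (mean ± SD) (−1.83 ± 0.17, adjusted p = 7.1e-08). Of 18 immediate early genes, which tissue digestion can induce, 4 were higher, 2 lower and 12 not called, with Jun 2.16 times higher and Fos at 3101, 2869 and 3438 and 2863, 2403 and 2239 CPM (adjusted p = 0.000102 and 0.2). Of 12 heat shock genes, 1 (Hspe1, whose product is mitochondrial) was lower and 11 were not called. Hspe1 had 39.1, 44.9 and 32.6 against 54.2, 92.9 and 75.6 CPM (adjusted p = 0.0478), and its call was lost without LYVE1+CX3CR1+ library 1 (0.105), 2 (0.0715) or 3 (0.158) or MHCII+CD11c+ library 2 (0.168) or 3 (0.105). Type I interferon-stimulated genes were not called in 18 of 22 cases, with 2 higher and 2 lower, near the 15.2% called of all genes tested. Oas2 was 4.27 times higher and Mx1 4.58 times lower (adjusted p = 0.0016 and 0.00525; Mx1 0.0781 with surrogate variables).

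Few markers of other cells were called. None of the tested markers of fibroblasts (10), endothelium (5), mural cells and muscle (5), cartilage and fat (3) or mast cells and basophils (5) was called. The summed fibroblast markers were at 83.0 to 117 CPM in LYVE1+CX3CR1+ and 13.6 to 261 CPM in MHCII+CD11c+ libraries. Col1a1, a fibroblast collagen, had 19.1, 7.3 and 9.63 and 47.01, 16.4 and 4.54 CPM, and Prg4, made by lining fibroblasts, 9.13, 8.38 and 7.26 and 2.98, 4.09 and 0.756 (adjusted p = 0.673 and 0.122). The summed endothelial markers ranged from 4.25 to 36.8 CPM in LYVE1+CX3CR1+ and from 29.5 to 625 CPM in MHCII+CD11c+ libraries. Most of that sum was Flt1, the VEGF receptor 1, which monocytes and macrophages also make, at 31.9, 610.0 and 26.5 CPM and so mostly in library 2, while Cdh5 had 0, 2.6 and 0 CPM there and Cldn5 had no count in any of the 6 libraries. Of 5 tested lymphocyte markers, 1 (Cd79b) was lower, with a summed level of the list of 0 to 1.81 against 2.23 to 6.05 CPM. Its call (adjusted p = 0.049) was lost without LYVE1+CX3CR1+ library 1 (0.173), 2 (0.137) or 3 (0.0814) or MHCII+CD11c+ library 1 (0.0698) or 3 (0.211), and also at equal depth (0.287) and with surrogate variables (0.566). Of 5 tested plasmacytoid dendritic cell markers, Siglech and Tcf4 were higher, Siglech at 18.7, 15.7 and 27.1 against 2.13, 0.929 and 2.65 CPM (3.48 ± 0.71, adjusted p = 0.00116). Tcf4, a transcription factor also made by many other cells, had 324, 249.5 and 327 against 93.4, 147 and 53.3 CPM (adjusted p = 7.42e-05). The summed level of this list was 496 to 593 CPM in LYVE1+CX3CR1+ and 92.3 to 392 CPM in MHCII+CD11c+ libraries, and the defining marker Ccr9 was at 1.45 and 2.47 CPM. Of 6 nerve and Schwann cell markers only Mbp was called, 2.65 times lower (adjusted p = 0.000153), and Sox10 was at 0.186 and 0.756 CPM. The part of RNA from these cells in the results was not tested.

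MHCII+CD11c− control cells, which share the MHC class II gate with MHCII+CD11c+ cells but not that of CD11c, mostly lay between the populations compared. Their mean was between both group means in 954 (79.8%) of the 1196 genes called higher in LYVE1+CX3CR1+ cells, above both in 223 and below both in 19. For the 1130 genes called lower it was between in 1000 (88.5%), above both in 28 and below both in 102. On log2(CPM + 1), with 0 at MHCII+CD11c+ and 1 at LYVE1+CX3CR1+ cells, the median place was 0.716 for the higher genes and 0.625 for the lower genes. These cells were nearer to LYVE1+CX3CR1+ in 76.7% and 67.5% of these genes. Exceptions were the class II genes, since Ciita had 214, 165 and 242 and H2-Ab1 3883, 4307 and 4158 CPM in the MHCII+CD11c− libraries. Genes at the LYVE1+CX3CR1+ level included Maf (740.5, 319.5 and 579.8 CPM), Selenop (4335, 3487 and 4558 CPM) and C1qa (1720, 1576 and 1786 CPM), and genes near its low level included Dcstamp (1.07, 1.59 and 2.34 CPM) and Irf4 (127, 130.2 and 95.96 CPM). As the genes were chosen by the test between the other 2 groups, these counts are a description.

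The same populations were compared 8 h after IC, in other libraries (n = 3 and 2). Drawn down to 2301913 counts each, these LYVE1+CX3CR1+ libraries had 13460, 13835 and 11547 genes with a count, and the MHCII+CD11c+ libraries 16905 and 16187. Correlations of log2 CPM between libraries were 0.855 to 0.890 for LYVE1+CX3CR1+ and 0.965 for MHCII+CD11c+ cells after IC. The part of the sparser LYVE1+CX3CR1+ libraries in the results after IC was not tested. After IC, 1824 genes (11.9%) were called, 538 (3.52%) higher and 1286 (8.42%) lower in LYVE1+CX3CR1+ cells. With DESeq2 the split was 990 and 1320. Without MHCII+CD11c+ IC library 2 there were 666 (106 higher and 560 lower) and without library 1 1026 (265 and 761), the lone library left being assumed to vary like the other groups. Of the higher genes, 457 were called in both settings, which was 38.2% of the control list and 84.9% of the list after IC. Of the lower genes, 739 were shared, 65.4% and 57.5% of the lists. The sign was the same after IC in 1132 of 1196 and in 1114 of 1130 control calls. Slc37a2 and Slfn8 were higher in controls and called lower after IC, and no gene was the reverse. Many of the leading genes kept large values after IC. Cmah was at 4.70 ± 0.35 log2 units, Selenop at 2.14 ± 0.23, Cd74 at −9.30 ± 0.39 and Itgb7 at −5.55 ± 0.40 (adjusted p = 3.64e-09, 1.25e-06, 1.47e-10 and 2.01e-09). Maf was at 1.96 ± 0.25 log2 units after IC against 3.54 ± 0.23 in controls. In MHCII+CD11c+ cells it had 165 and 143 CPM after IC and 61.9, 63.5 and 51.4 in controls, and the difference of differences did not pass the test (adjusted p = 0.0594). A difference between the settings was called in 5 genes (0.0327%), 2 with a higher value after IC (0.0131%) and 3 with a lower one (0.0196%), and 1225 genes (8.02%) had an unadjusted p under 0.05. The count was 56 (2 and 54) without MHCII+CD11c+ control library 2 and 42 (8 and 34) with DESeq2.

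**Figure D4:**
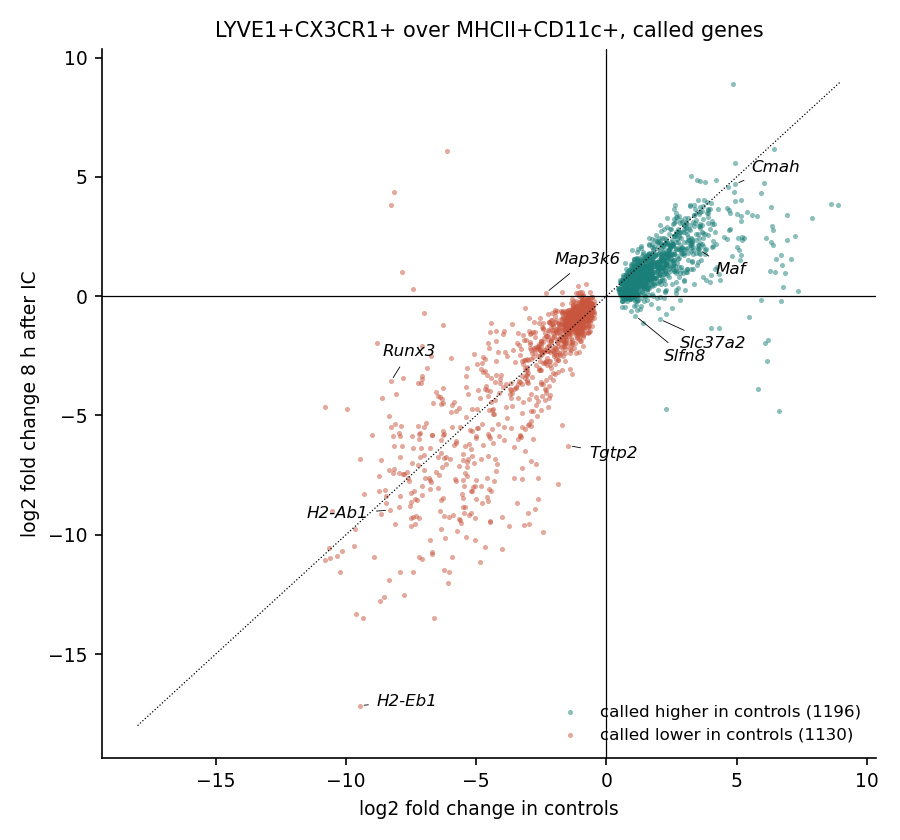
Fitted log2 fold change of LYVE1+CX3CR1+ over MHCII+CD11c+ cells in controls (x axis) and 8 h after IC (y axis) for the 1196 genes called higher (teal) and 1130 called lower (orange) in controls. The dotted line marks equal values; 1132 teal points lie above 0 and 1114 orange points below 0 on the y axis. Fitted values of genes with few or no counts in a group depend on the prior count.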

How the data were processed

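RNA from sorted macrophages (5 ng a library) had been made into stranded total RNA libraries and sequenced by the authors. Per the labels and the study's methods they trimmed reads with Trim Galore, checked them with FastQC, aligned them to mm10 (HISAT2) and obtained gene counts by featureCounts. The deposited values are raw counts per gene, with no normalization, in a joint table whose columns equal the 17 single files. One further column of that table (1 in number) matched no sample and was not used. Rows with fewer than 3 counts in total do not occur in the table. For its own test the study used DESeq2, with batches removed by sva. Here DESeq2, and surrogate variables in the edgeR fit, were separate alternatives and were not combined.

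Genes were kept by filterByExpr (minimum count 10 over 6 groups), scaled by TMM and tested with edgeR 4.0.16 (glmQLFit and glmQLFTest, R 4.3.3) in 1 fit of all 17 libraries, so that the groups shared an estimate of the spread (biological coefficient of variation 45.09%). SE is the log2 fold change divided by the square root of F. Where every library of a group had at most 3 counts, a ratio of summed counts per total with its 95% interval, or a bound from 3 counts over the group, was given in place of a fitted value. Such intervals cover counting error only. The fit was tested on simulated data, with changes enlarged and genes of few counts left unchanged after a first run. It missed many changes of moderate size, so a gene that was not called is not shown to be alike in both groups. Alternatives used DESeq2 1.42.0, limma 3.58.1 and sva 3.50.0 (2 of 5 estimated variables). Coordinates are from GENCODE M21 (GRCm38), matched by symbol for 97.5% of genes.

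Named genes were the sort markers, up to 6 called members of each list by p whose libraries did not overlap, uncalled defining markers, the 12 genes of smallest p a side with at least 20 CPM and no predicted-gene name, and the 12 highest floor genes a side. Genes whose call was lost without 1 library, and Rpsa, were added after their values were seen. The members, lists and comparisons were chosen with earlier results of these data known. Same-numbered libraries of the compared groups deviated from their group means with correlations of 0.02445, 0.05939 and 0.01722 over all genes tested. Values this small cannot decide whether libraries of the same number share mice. The control libraries of number 2 also shared high Arg1 and high mitochondrial shares. The main fit did not pair libraries by number, and a replicate block was run as an alternative (2558 calls against 2326). For these libraries the sources used here do not say whether those of a group came from separate mice, so p-values measure the spread between these libraries, which may be in part technical. Values of some single genes that count in the lists are not reported here.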

Additional observations from a re-analysis of the deposited data

Results flagged for a closer look

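The difference between LYVE1+CX3CR1+ and MHCII+CD11c+ cells was itself different after IC in 5 genes at an adjusted p under 0.05, by the interaction term of the edgeR fit over all 17 libraries. The values were higher after IC in 2 of them and lower in 3. H2-Eb1 had 3.78, 4.59 and 7.54 CPM in the LYVE1+CX3CR1+ control libraries and no count in the 3 libraries after IC. In MHCII+CD11c+ cells it had 4472, 2747 and 4217 CPM in controls and, after IC, 3837 and 4179 (adjusted p = 3.47e-05). Slc37a2, a sugar phosphate transporter of macrophages, had 129, 103 and 135 CPM in LYVE1+CX3CR1+ controls and, after IC, 33.1, 35.2 and 31.9. In MHCII+CD11c+ cells it had 19.8, 43.6 and 25.3 CPM in controls and, after IC, 59.2 and 70.9. The difference of differences was −3.0 ± 0.38 log2 units (adjusted p = 0.000359). Map3k6, a kinase gene, had 16.4, 16.5 and 15.6 CPM in LYVE1+CX3CR1+ controls and, after IC, 55.3, 83.7 and 60.1. In MHCII+CD11c+ cells it had 88.3, 59.1 and 96.8 CPM in controls and, after IC, 56.4 and 64.9, a difference of 2.46 ± 0.38 (adjusted p = 0.00547). Tgtp2, an interferon-inducible GTPase, has a near-identical copy, Tgtp1, between which reads may be split, so its values are uncertain. It had 8.51, 6.22 and 5.86 CPM in LYVE1+CX3CR1+ controls and, after IC, 1.17, 0 and 0, against 15.7, 16.7 and 25.3 in MHCII+CD11c+ controls and 34.4 and 36.8 after IC (adjusted p = 0.00738). Runx3 had 0.158, 0 and 0.419 CPM in LYVE1+CX3CR1+ controls and, after IC, 4.1, 14.5 and 3.32, against 84.9, 67.1 and 84.7 in MHCII+CD11c+ controls and 84.8 and 90.3 after IC (adjusted p = 0.023). Fitted sizes for H2-Eb1, Tgtp2 and Runx3 are not given, since each rests on a group with few or no counts. The MHCII+CD11c+ group after IC had 2 libraries. At equal depth the LYVE1+CX3CR1+ libraries after IC had fewer genes with a count, as given above, and their part in these results was not tested.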

How the results depend on the processing

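The count of 2326 genes between controls stayed within 1.5 times under other scalings, low-count filters, sample sets, DESeq2 (2926), surrogate variables and a length offset. It was 659 when tested against a log2 fold change of 1, 1420 at an adjusted p under 0.01 and 3817 with limma voom and quality weights. Leaving out 1 library gave 1591 to 2716. After IC, the count of 1824 became 535 against a log2 fold change of 1 and 936 at an adjusted p under 0.01, and 666 to 1965 without 1 library, the lowest without MHCII+CD11c+ IC library 2 (1026 without library 1, the remaining library being assumed to vary like the other groups). Its split of 538 higher and 1286 lower became 990 and 1320 with DESeq2. The 5 genes of the difference between settings became 20 with no low-count filter, 16 with surrogate variables, 9 with a length offset, 3 against a log2 fold change of 1, 42 with DESeq2 and 3 to 56 without 1 library (56 without MHCII+CD11c+ control library 2). A fit with a replicate block gave 2558, 1754 and 35 calls (the last 2 higher and 33 lower). In deviations from group means, 5 of 6 libraries correlated best with their own number. All these correlations lay between −0.045 and 0.059, too small to decide whether libraries of the same number share mice. Of 298 named genes called, 212 were called under every setting except the stricter thresholds and none reversed. Leaving out 1 of the 6 libraries lost between 16 (MHCII+CD11c+ library 2) and 54 (LYVE1+CX3CR1+ library 1) of those calls, and surrogate variables lost 67. The causes were not tested. With 3 libraries a group and 2549315 counts in the shallowest, a gene that was not called may still differ, also where its level is high.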
